A study of Mus musculus with 6 samples.

Results

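The genes described here belong to the amino acid response that the transcription factor ATF4 drives: the enzymes that make serine, asparagine, proline and cysteine, the cytosolic tRNA ligases, and the regulators switched on with them. They are 40 named genes out of 18193 genes with a probe set of their own on the array, and a gene was followed through every probe set whose annotation gives its symbol alone. Of the 40, 37 had such a probe set and 35 were bright enough to be tested. A gene was tested where its mean log2 signal was at or above the median of all probe sets, a signal of 41.9. Mthfd1l and Eif2ak4 were dimmer than that, and Pycr1, Mars and Eif2s1 were not analysed here. Where a gene had several probe sets, the one with the highest mean log2 signal over all 6 arrays stood for it.

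RNA came from proximal tubules dissected by hand from the perfused left kidneys of wild type and Clcn5 knockout mice, all under halothane. Clcn5 encodes the endosomal chloride and proton exchanger ClC-5, whose loss underlies Dent disease. The 3 knockout and 3 wild type arrays each carried RNA pooled over mice, 3 to 4 per pool in the labels and 7 in the records of the arrays, and these records call the pools biological replicates. Strain, age, sex and the way Clcn5 was disrupted are not given in the sources used here, and p-values measure the spread between pools.

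Cells that run short of an amino acid, or whose endoplasmic reticulum is stressed, phosphorylate the translation factor eIF2. Most translation then slows while the message of ATF4 is read more, and ATF4 binds with C/EBP partners to genes for amino acid synthesis, import and loading onto tRNA. Because this control acts on translation, the amount of Atf4 message and the activity of its protein need not run together. In the proximal tubule, which takes up amino acids from the filtrate, serine is also made for release to the rest of the body.

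ATF4 and its C/EBP partners bind a composite element whose core was searched for as the letters TGATGNAA, read on both strands (TTNCATCA in reverse), in windows from 250 bases before to 50 after each RefSeq start site of build GRCm38.p6. The start site is counted as base 1, and motif positions refer to the first base of the match as the window is read. Of the 32 members with a window, 12 held the letters (37.5%), against 4.51% of the 27025 genes in the table. The search used no value of the arrays. The members were listed as targets of this factor, so the high share describes the list and is no test. Among the members that passed the test described below, 2 of 10 with a window held the letters, Asns and Chac1, and among the tested members that did not pass, 9 of 18 did. A match is only a match of letters, and its absence speaks for this window alone. The 250 bases before the start site are shown for Asns and Chac1, which fell and hold the letters, and for Phgdh, which fell and does not; capitals mark the matches, at positions −23 in Asns and −193 in Chac1. They lie on GRCm38.p6 at chr6:7693210-7693459 (minus strand), chr2:119350992-119351241 (plus strand) and chr3:98339970-98340219 (minus strand).
Asns: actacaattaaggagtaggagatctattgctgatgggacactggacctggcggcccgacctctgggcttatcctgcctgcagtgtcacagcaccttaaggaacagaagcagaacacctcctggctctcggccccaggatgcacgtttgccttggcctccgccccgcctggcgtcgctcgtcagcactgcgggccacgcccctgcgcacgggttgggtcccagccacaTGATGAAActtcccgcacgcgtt
Chac1: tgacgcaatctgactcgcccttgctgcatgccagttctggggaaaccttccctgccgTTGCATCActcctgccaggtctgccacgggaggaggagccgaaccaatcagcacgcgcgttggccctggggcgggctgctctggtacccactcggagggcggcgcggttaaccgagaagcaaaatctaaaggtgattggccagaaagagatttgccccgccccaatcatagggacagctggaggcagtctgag
Phgdh: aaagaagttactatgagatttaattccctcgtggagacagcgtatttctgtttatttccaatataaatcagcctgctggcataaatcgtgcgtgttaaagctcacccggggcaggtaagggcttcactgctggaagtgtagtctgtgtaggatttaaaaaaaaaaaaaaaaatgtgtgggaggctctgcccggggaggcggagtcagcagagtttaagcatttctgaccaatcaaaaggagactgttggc

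Windows of 40 bases around the match are shown for 4 members that hold the same letters and whose signals did not pass the test: the tRNA ligase genes Tars, Gars and Aars and the stress gene Nupr1. They lie at chr15:11399659-11399698 (minus strand), chr6:55037955-55037994 (plus strand), chr8:111033714-111033753 (plus strand) and chr7:126625557-126625596 (minus strand), with the match in capitals.
Tars: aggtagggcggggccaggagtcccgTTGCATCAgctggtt
Gars: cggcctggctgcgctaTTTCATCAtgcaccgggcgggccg
Aars: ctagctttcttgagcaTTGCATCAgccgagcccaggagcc
Nupr1: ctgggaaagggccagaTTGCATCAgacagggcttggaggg

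Values are MAS5 signals on a linear scale, brought to a trimmed mean of 150.0 on every array, and no value of the table was 0. Median signals ran from 40.9 to 48.8, the highest on knockout array 3, which was also the array stained with the other solution lot. Clcn5 itself gave 107, 111 and 127 on knockout arrays 1, 2 and 3 and 821, 861 and 834 on wild type arrays 1, 2 and 3 on the probe set 1429400_at, and all 4 of its probe sets were lower in knockout, by 2.83-fold to 7.31-fold. Markers of the labelled tissue were bright: the summed signal of 11 genes of the S1 and S2 segments ran from 36410 to 38943 in knockout and from 36862 to 41296 in wild type, and 1 of the 11 genes fell. The summed signal of 9 markers of S3, the last segment of the proximal tubule, was 17241 to 18838 in knockout against 14247 to 15346 in wild type. Markers of other cells were present. Summed signals of 8 thick ascending limb markers were 14229 to 15631 against 11923 to 12582, of 6 distal convoluted and connecting tubule markers 18381 to 19441 against 15629 to 17888, of 11 leukocyte markers 3157 to 3322 against 2256 to 2270, and of 6 podocyte markers 1748 to 2072 against 1501 to 1599.6. In the S3 list and each of these 4 lists 2 or 3 markers passed the test as higher and none as lower. Of 8 collecting duct markers 2 rose and 2 fell, and none of 8 endothelial or 6 fibroblast and mural markers passed. Calls of 6 markers ended when 3 to 5 of the arrays were each left out in turn: Slc12a1 of the thick ascending limb (adjusted p up to 0.154), Trpm6 of the distal tubule (0.121), Laptm5 of leukocytes (0.0786), Nphs1 of podocytes (0.0726), and Aqp2 (0.16) and Slc26a4 (0.102) of the collecting duct. The part of these cell types in the results below was not tested, and in such samples fewer cells of a type and less RNA per cell cannot be told apart.

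A set of amino acid response genes was lower in the knockout tubules, while others of the same response were not. Of the 35 tested members, 9 fell and 2 rose at a limma p adjusted by Benjamini-Hochberg over all 11620 genes tested of under 0.05. Among all genes tested, 3.24% fell and 3.24% rose. The genes that fell were Eif4ebp1, Atf5, Psat1, Mthfd2, Chac1, Asns, Phgdh, Sesn2 and Sars, in order of size, and those that rose were Shmt1 and Eprs. In 16 members all 3 knockout signals lay below all 3 wild type signals, and in 4 they lay above, against 11.6% and 13.6% of all genes tested. The log2 change was below 0 in 29 of 35 members, with a median of −0.11, where the median of all genes tested was 0.01. Leaving out 1 array gave 7 to 10 falls and 1 to 2 rises.

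**Figure D1:**
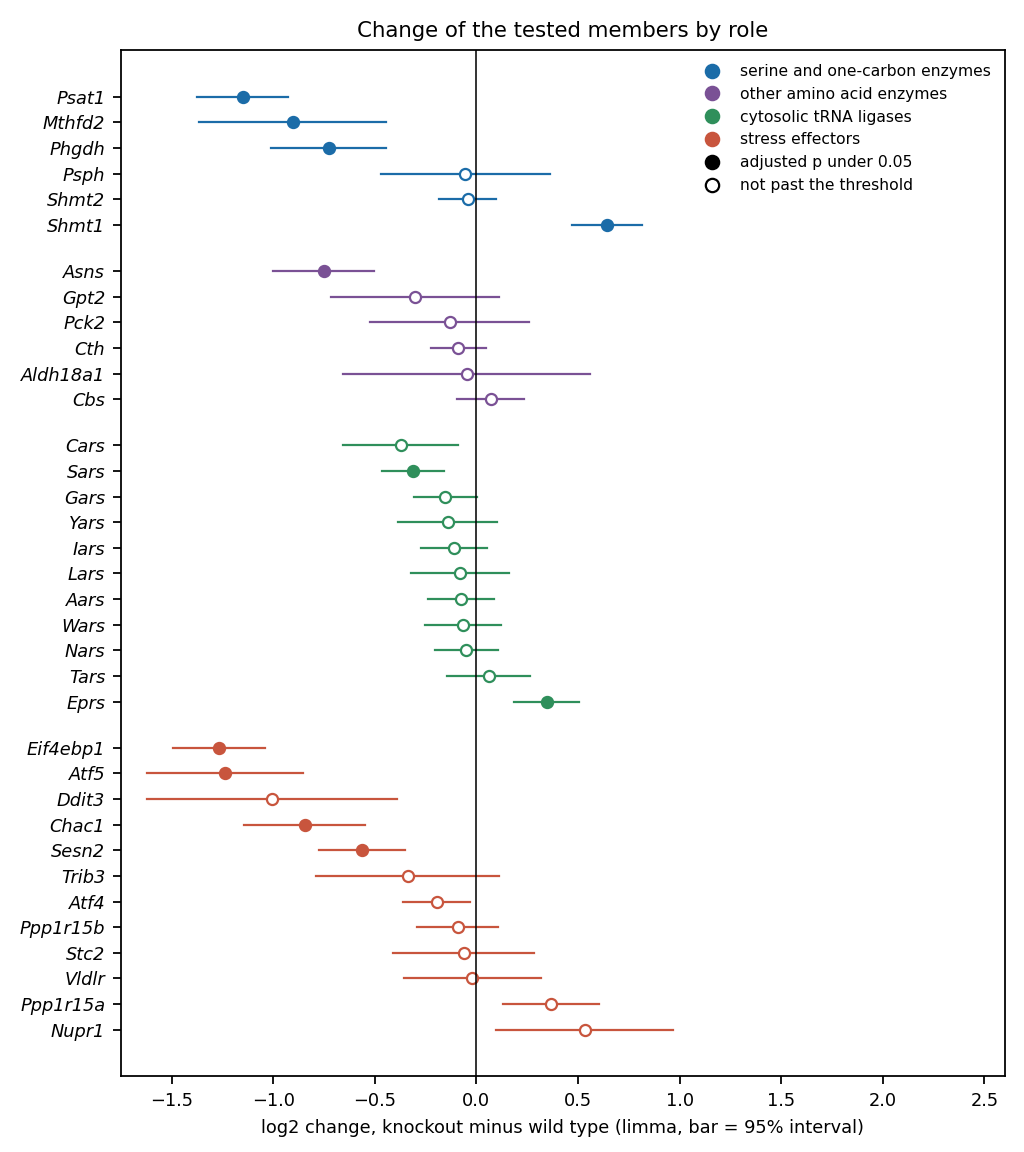
Log2 change (knockout minus wild type, x axis) of the 35 tested members, with 95% intervals from limma, grouped and coloured by role; filled circles passed the threshold and open ones did not. Serine and stress genes spread from −1.27 to 0.64, while the 11 tRNA ligases lie between −0.37 and 0.35.

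The first 2 enzymes of serine synthesis were lower and the last was not. Psat1, the aminotransferase of the second step from glycolysis to serine, gave signals of 168, 188 and 205 on the knockout arrays and 457, 399 and 388 on the wild type arrays. All knockout values thus lay below the lowest wild type value, a 2.22-fold drop (log2 change −1.15 with SE 0.10, limma adjusted p = 6.52e-05). Its other probe set, 1454607_s_at, fell further, from 395, 369.7 and 392 in wild type to 113, 145 and 149.8 in knockout (log2 change −1.52). Phgdh, which commits 3-phosphoglycerate to serine, gave 277, 222 and 228 in knockout and 391, 475 and 342 in wild type. The groups did not overlap, and the drop was 1.65-fold (log2 change −0.73 with SE 0.13, limma adjusted p = 0.00561). The 4 Phgdh probe sets were all lower in knockout but differed in size. The log2 change was −0.82 on 1456584_x_at, which did not pass over all probe sets (limma adjusted p = 0.0535), while 1454714_x_at and 1437621_x_at passed with −2.27 and −2.34. On 1454714_x_at the signals were 48.9, 49.3 and 18.8 against 168, 152 and 199, so that knockout array 3 was the lowest of all. The suffix _x marks probe sets that may also bind related sequences, and the probe set that stood for Phgdh, 1426658_x_at, carries it too. Psph, the phosphatase of the last step, gave 131, 180.3 and 177 in knockout and 191, 197 and 124 in wild type. The groups overlapped widely (log2 change −0.05, 95% interval −0.47 to 0.36), so a drop of the size seen for Psat1 lies outside that interval.

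Of the tested one-carbon enzymes, Shmt1 rose, Shmt2 did not change and Mthfd2 fell. Shmt1, the cytosolic serine hydroxymethyltransferase, gave 569, 526 and 539 in knockout and 353, 320.0 and 375 in wild type. Every knockout value was above every wild type value, a rise of 1.56-fold (log2 change 0.64 with SE 0.08, limma adjusted p = 0.000575). Of its other 3 probe sets, 1422198_a_at rose as well (229, 231 and 251 against 129, 129 and 141, log2 change 0.83). The remaining ones, 1425177_at and 1425178_s_at, had log2 changes of 0.14 and 0.00 and did not pass. Shmt2, the mitochondrial form, stayed close between the groups, with 1875, 1816 and 1753 in knockout and 1779, 1970.3 and 1861 in wild type (log2 change −0.04, 95% interval −0.18 to 0.10). Its other 3 probe sets lay between −0.04 and 0.37, and none passed. Mthfd2, the mitochondrial dehydrogenase and cyclohydrolase that takes the one-carbon unit onwards, gave 55.1, 40.5 and 65.8 against 108, 103 and 86.6. The knockout arrays were all lower, by 1.87-fold (log2 change −0.90 with SE 0.21, limma adjusted p = 0.0258), and the second probe set, dimmer still, read 27.6, 27.8 and 27.7 against 64.8, 50.2 and 70.6. The call of Mthfd2 ended without knockout array 2 and without each wild type array, with an adjusted p of up to 0.119. Mthfd1l, which makes formate in mitochondria, read between 17.6 and 49.8 on the 6 arrays and was not tested.

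**Figure D2:**
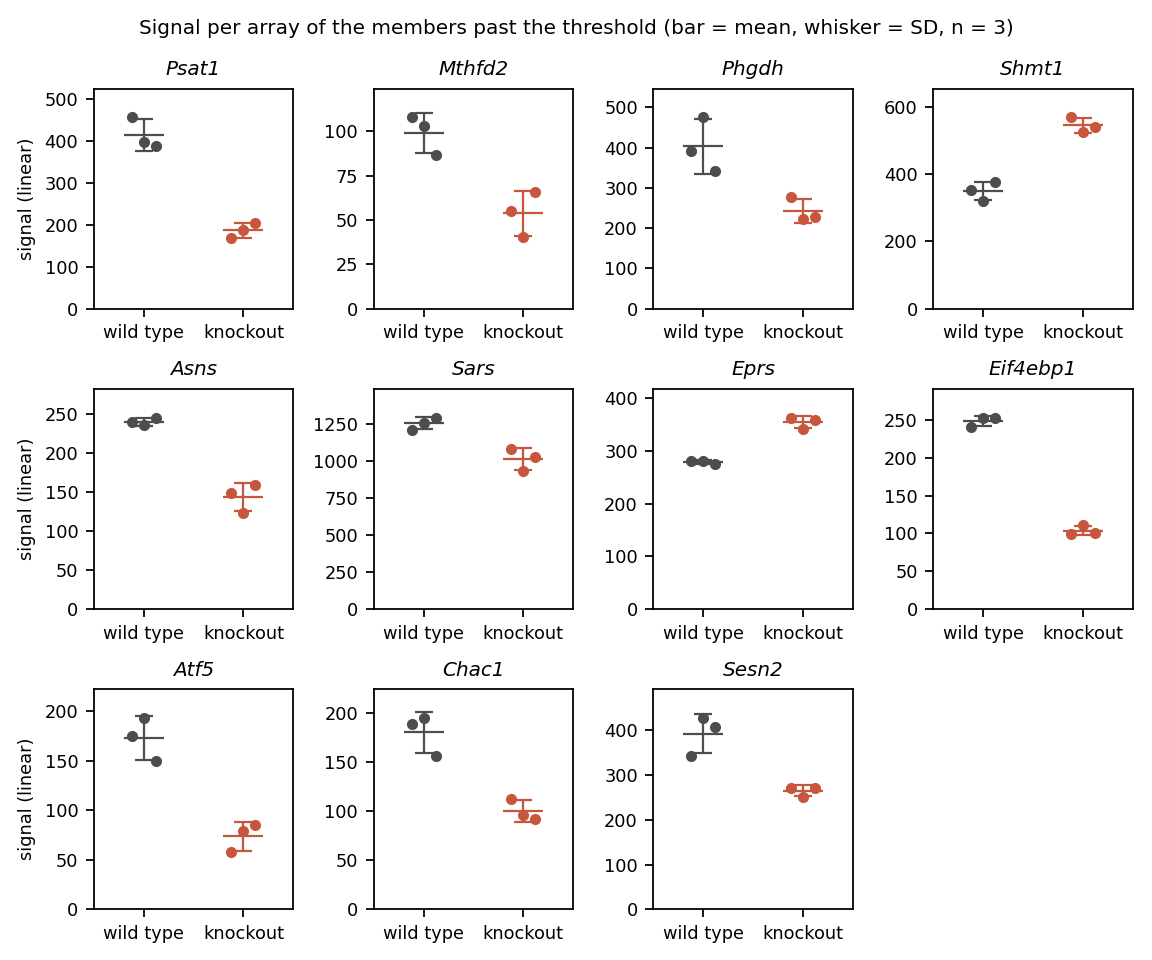
Signal (linear, y axis from 0) of the 11 members past the threshold on each array, wild type in dark grey and knockout in red; bars are means and whiskers SDs of 3 arrays. In each panel the 3 knockout points are clear of the 3 wild type points, above them for Shmt1 and Eprs and below them for the others.

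Among the enzymes of other amino acids 1 of 6 tested members changed. Asns, asparagine synthetase, whose promoter is shown above, gave 149, 123 and 159 in knockout and 240.0, 236 and 246 in wild type. The wild type arrays lay within a narrow band and all knockout arrays below it, at 144 ± 18.5 against 241 ± 5.08 (SD, n = 3), a 1.68-fold fall (log2 change −0.75 with SE 0.11, limma adjusted p = 0.00213). Its dim probe set 1433966_x_at showed a fall as well, with 35.5, 23.6 and 26.7 against 55.9, 75.5 and 81.9 (log2 change −1.32). Gpt2, the mitochondrial alanine aminotransferase, varied more between wild type pools than between groups, at 312, 254 and 235 against 237, 343 and 428 (log2 change −0.30, limma adjusted p = 0.432). Its other 3 probe sets lay between −0.43 and −0.08. Cth, cystathionine gamma-lyase of cysteine synthesis, was bright and nearly level: 1614, 1664 and 1513 in knockout and 1704, 1677 and 1708 in wild type. Those groups did not overlap, yet the difference was small (log2 change −0.09, limma adjusted p = 0.486). Cbs, the enzyme before it, Pck2, mitochondrial phosphoenolpyruvate carboxykinase, and Aldh18a1, which starts proline synthesis, had log2 changes of 0.07, −0.13 and −0.05. The 5 probe sets of Aldh18a1 were dim, with no signal above 77.8, and pointed both ways, from −0.48 to 0.57.

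The cytosolic tRNA ligases, which load amino acids onto their tRNAs, shifted little. Of 11 tested, 1 fell and 1 rose, and the median log2 change was −0.08. Sars, the seryl-tRNA ligase, gave 1079, 934 and 1026 in knockout and 1214, 1260.0 and 1295 in wild type. The knockout values were all lower, by 1.24-fold (log2 change −0.31 with SE 0.07, limma adjusted p = 0.0205), and the probe set 1452000_s_at read 405, 356 and 366 against 456, 522 and 507. Eprs, the ligase for glutamate and proline, gave 364, 342 and 359.5 against 280.3, 282 and 276, a rise of 1.27-fold (log2 change 0.35 with SE 0.07, limma adjusted p = 0.0156). Its other bright probe sets did not show this: 1426713_s_at scattered from 209 to 543 within the knockout group, and 1452158_at had a log2 change of 0.08. Both calls were fragile. The one for Sars ended without knockout array 2 and without each wild type array (adjusted p up to 0.0868), and the one for Eprs without every array except knockout array 1 (up to 0.871). Without knockout array 2 or 3 the probe set 1426713_s_at was the brightest and stood for Eprs.

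Cars, the cysteinyl-tRNA ligase, gave 122, 113 and 147 in knockout and 173, 166 and 153 in wild type. Its groups were apart but the difference did not pass (log2 change −0.37, limma adjusted p = 0.13), except without knockout array 3 (0.047). The other 8 ligases, Gars, Yars, Iars, Lars, Aars, Wars, Nars and Tars, for glycine, tyrosine, isoleucine, leucine, alanine, tryptophan, asparagine and threonine, lay between −0.15 and 0.06, and the lowest bound of their 95% intervals was −0.38, for Yars. In Gars and Iars the knockout arrays lay just below the wild type arrays, and in the other 6 the groups overlapped. For these 8 genes a drop as large as that of Asns lies outside the interval. For Nars and Iars the less bright probe sets, 1428666_at and 1452154_at, stood at −0.26 and −0.24, with 628, 657 and 663 against 791, 773 and 765 for Nars. Neither passed the test run over all probe sets (limma adjusted p = 0.0863 and 0.171).

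On the probe sets that stood for the genes, the stress effectors held the 2 largest falls of all members, in Eif4ebp1 and Atf5. Other probe sets of Phgdh (log2 change −2.27 and −2.34) and Psat1 (−1.52) fell further than these. Eif4ebp1 encodes 4E-BP1, which holds back cap-dependent translation, and gave 99.6, 111 and 101 in knockout and 241, 253 and 253 in wild type. Replicates were close in both groups and far apart between them, at 104 ± 6.14 against 249 ± 6.87 (SD, n = 3), a 2.41-fold fall (log2 change −1.27 with SE 0.10, limma adjusted p = 3.82e-05). These values are of 1434976_x_at, a probe set with the suffix _x. Probe set 1417562_at, without that suffix, read 99.8, 86.3 and 121 against 201, 219 and 247, and the dim 1417563_at had a log2 change of −0.32. Atf5, a transcription factor translated under the same control as ATF4, gave 57.3, 79.0 and 85.3 against 175, 193 and 149.6, a 2.36-fold fall on its single probe set (log2 change −1.24 with SE 0.17, limma adjusted p = 0.0014). Chac1, an enzyme that breaks down glutathione, gave 112, 95.7 and 92.0 against 189, 195 and 156, 1.80-fold lower (log2 change −0.84 with SE 0.13, limma adjusted p = 0.00304). Sesn2, a leucine sensor that restrains mTORC1, gave 272, 251 and 272 against 344, 428 and 407, 1.48-fold lower (log2 change −0.56 with SE 0.09, limma adjusted p = 0.0043). In each of these genes the highest knockout array stayed below the lowest wild type array, and the second Sesn2 probe set showed the same gap, 91.2, 107 and 97.5 against 138, 148 and 187.

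Atf4 itself was only slightly lower. Its signals were 574, 537 and 627 in knockout and 658, 638 and 690.5 in wild type. The groups were apart by a small margin and the difference did not pass (log2 change −0.20, 95% interval −0.36 to −0.03, limma adjusted p = 0.171). A second Atf4 probe set had a log2 change of −0.18, with groups that overlapped, and the last of its 3 was dim. Ddit3, which encodes the death-linked factor CHOP, gave 64.3, 46.5 and 40.04 against 91.7, 71.5 and 148. Knockout was lower on every array, but the spread among wild type arrays was wide, and the log2 change of −1.01 (SE 0.28) had a limma adjusted p of 0.0605. Its other probe set, 1443897_at, was dim with overlapping groups, 43.4, 27.3 and 8.93 against 6.54, 38.1 and 42.7. On the brighter probe set that stood for it, Ddit3 passed without knockout array 1 (0.041) and without wild type array 2 (0.0384). It also passed there with the fluidics station as a block (0.0292). Trib3, the pseudokinase that curbs ATF4, was dim on both probe sets. The one that stood for it read 40.3, 53.0 and 53.9 against 64.5, 58.5 and 61.7 (log2 change −0.34, limma adjusted p = 0.412). The other, below the limit for the test by genes, read 35.9, 16.1 and 18.5 against 67.5, 56.6 and 68.8 (log2 change −1.54, limma adjusted p = 0.0549 over all probe sets).

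None of the 12 effectors passed as higher. Ppp1r15a, or GADD34, which recruits the phosphatase that ends eIF2 phosphorylation, gave 195, 210.5 and 183 in knockout and 138, 159.5 and 159 in wild type. The groups did not overlap (log2 change 0.37, limma adjusted p = 0.0762), and with array weights in the fit Ppp1r15a passed as higher (limma adjusted p = 0.0433). Its constitutive relative Ppp1r15b had a log2 change of −0.09 with overlapping groups. Nupr1, a small stress protein, gave 126, 89.7 and 89.2 against 60.3, 85.2 and 65.0, with knockout array 1 well above the others (log2 change 0.53, limma adjusted p = 0.162). On its other probe set, 1419665_a_at, the groups overlapped (log2 change 0.21). Stc2, a secreted glycoprotein, and Vldlr, a lipoprotein receptor, had log2 changes of −0.06 and −0.02. The 6 Vldlr probe sets disagreed, from −0.51 for 1417900_a_at, with 215, 217 and 185 against 331, 314 and 241, to 0.46 for a dim one. Eif2ak4, the kinase GCN2 that senses uncharged tRNA, read between 6.01 and 39.2 on its 2 probe sets and was not tested.

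**Figure D3:**
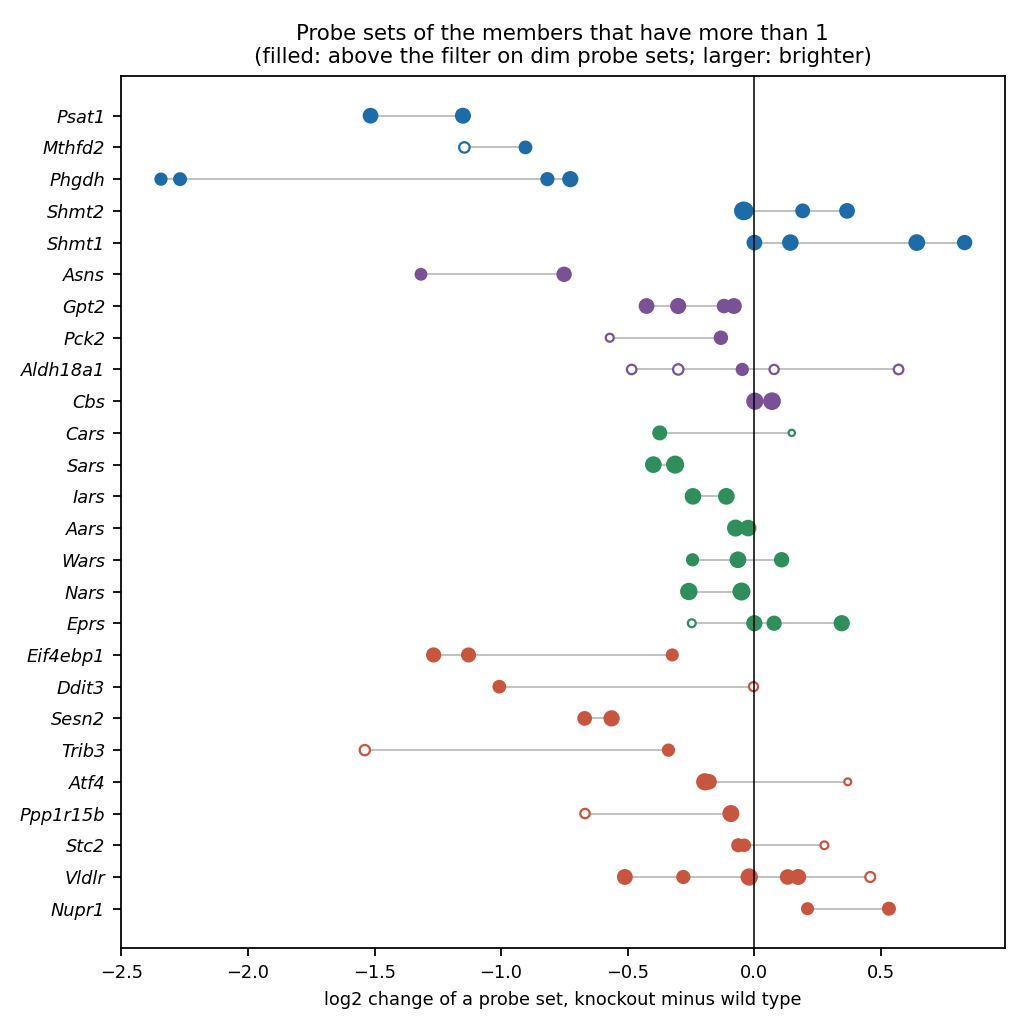
Log2 change (x axis) of every probe set of the tested members that have more than 1, coloured by role; filled circles are above the filter on dim probe sets, open ones below it, and larger circles are brighter. All probe sets of Psat1, Phgdh, Asns, Mthfd2, Sesn2 and Eif4ebp1 lie below 0. Those of Shmt1 lie at 0 or above, and those of Eprs and Vldlr lie on both sides of 0.

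The test was also run over all 45037 probe sets without a filter. Of the 86 probe sets of members, 13 passed as lower and 2 as higher, where 0.979% and 0.913% of all probe sets did. Without the intensity trend in the fit, 1 probe set of the members passed in place of 15. With the trend, the 13 that fell were of Psat1, Phgdh, Asns, Mthfd2, Eif4ebp1, Atf5, Chac1 and Sesn2, and both that rose were of Shmt1. With this larger number of tests, the probe sets that stood for Sars (0.0707), Eprs (0.0507) and Mthfd2 (0.0717) were above a limma adjusted p of 0.05, and for Mthfd2 only the dimmer probe set passed (0.0394). The probe sets of Aars, Cars, Wars, Cbs, Pck2, Stc2 and Ppp1r15b that did not stand for their gene lay between −0.67 and 0.28 on the log2 scale, and none passed.

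Set side by side, the roles differed in how far their genes went. The 6 tested serine and one-carbon genes had a median log2 change of −0.39, with 3 lower and 1 higher. The 12 stress effectors had −0.27, with 4 lower and none higher. The 6 other amino acid enzymes had −0.11, with 1 lower and none higher, and the 11 tRNA ligases had −0.08, with 1 of each. Over all genes tested, 3.24% fell, 3.24% rose and the median log2 change was 0.01. The counts by role rest on a small number of genes, and the difference between roles was not tested.

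**Figure D4:**
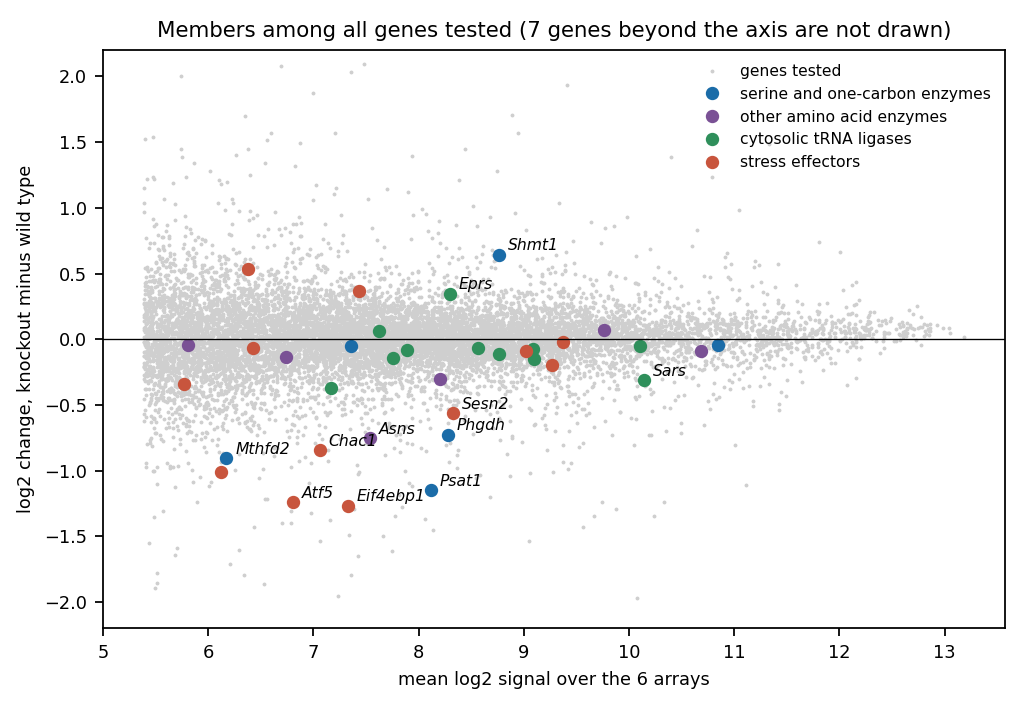
Log2 change (y axis) against mean log2 signal (x axis) of all 11620 genes tested (grey) and the members (coloured by role, labelled where they passed). The axis leaves out 7 genes with larger changes. Eif4ebp1, Atf5 and Psat1 lie at −1.27, −1.24 and −1.15, and the tRNA ligases between −0.37 and 0.35.

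The arrays were washed and stained on 2 fluidics stations, both of which held both groups: 4 arrays on station 1 and 2 on station 2. All 11 members past the threshold had the same direction on both. This had to follow, since their groups did not overlap, and is no test. Eif4ebp1 had log2 changes of −1.23 on station 1 and −1.33 on station 2, Psat1 −1.25 and −0.96, Atf5 −1.27 and −1.18, Asns −0.84 and −0.57, Phgdh −0.56 and −1.06, and Shmt1 0.59 and 0.75. Atf4 had −0.28 and −0.03, and Nupr1 0.77 and 0.07, so that their differences rested mainly on station 1. With the 4 arrays of station 1 alone, 4 members fell and 1 rose, and 6 of the 11 no longer passed: Phgdh (adjusted p = 0.0737), Chac1 (0.0574), Sesn2 (0.0536), Mthfd2 (0.0656), Sars (0.116) and Eprs (0.925). Station 2 held a single array of each group and allows no test. Its knockout array, array 3, was stained with the other solution lot, so group and lot cannot be told apart there.

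Other genes of the same pathways, taken from lists by function, did not fall as a body, although most of the amino acid carriers below lay under 0. Of 10 other tested genes of cytosolic tRNA ligases and their scaffold, 1 rose and none fell. This was Hars, the histidyl-tRNA ligase (382, 359 and 369.8 against 285, 307 and 295, log2 change 0.33, limma adjusted p = 0.0226), a call that ended without knockout array 1 and without each wild type array (up to 0.108) and when probe sets were averaged (0.603). None of 15 mitochondrial tRNA ligases passed, the smallest p being that of Rars2 (log2 change 0.18, limma adjusted p = 0.112) and Yars2 (0.32, 0.251). None of 13 eIF2 kinase, eIF2 and eIF2B genes passed, with a median log2 change of 0.02. Of these, Eif2b1 and Eif2b2, subunits of the exchange factor for eIF2, had the smallest p (log2 change 0.23 and 0.15, limma adjusted p = 0.21 and 0.25).

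Of 7 tested amino acid carriers known as targets of ATF4, 1 fell and none rose, and their median log2 change was −0.21. The log2 change was below 0 in 6 of the 7. In 3 of them all knockout signals lay below all wild type signals, against 11.6% of all genes tested. Slc38a2, which imports small neutral amino acids, gave 348, 332 and 308 in knockout and 382, 422 and 418 in wild type. Its groups did not overlap (log2 change −0.31, limma adjusted p = 0.045), but the call ended without every array except knockout array 1 (up to 0.169) and in most other settings, and with averaged probe sets the log2 change was near 0. Slc3a2, the heavy chain shared by several carriers, gave 2140.4, 2179 and 2029 against 2451, 2252 and 2644, and Slc6a9, a glycine carrier, 452, 389 and 405 against 513, 511 and 463. In both, knockout was lower on all arrays without passing (log2 change −0.21 and −0.26, limma adjusted p = 0.138 and 0.0967). These carriers, and Cebpg below, were picked out after their values were seen.

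ATF4 partners and other targets went the opposite way where they changed: 3 of 11 tested rose and none fell. Ddit4, an mTORC1 inhibitor also known as REDD1, gave 582, 552 and 408 in knockout and 224, 217 and 215 in wild type. All knockout arrays were higher, by 2.32-fold (log2 change 1.21 with SE 0.12, limma adjusted p = 0.000148). Cebpb, a dimer partner of ATF4, gave 789, 689.7 and 604 against 473, 444 and 438, 1.53-fold higher (log2 change 0.61 with SE 0.09, limma adjusted p = 0.00242), and Atf3, a factor induced by ATF4 and by handling of tissue, 199.9, 187 and 161 against 114, 97.7 and 128, 1.61-fold higher (log2 change 0.69 with SE 0.14, limma adjusted p = 0.011). Cebpg, another partner, was lower on all knockout arrays without passing (279, 291 and 253 against 349.6, 306 and 306, log2 change −0.22, limma adjusted p = 0.197). On the same arrays 11 of 18 tested early response genes, which answer to handling of tissue and to hormones, rose and none fell, with a median log2 change of 0.41. They were Zfp36, Btg2, Dusp1, Jund, Jun, Nr4a1, Egr1, Ier3, Atf3, Fos and Junb, and Atf3 is on both lists. Zfp36, which destabilises messages, gave 1224, 1264 and 1272 against 684, 694 and 688. The calls of Fos and Junb ended without any of several single arrays (adjusted p up to 0.153 and 0.164), and that of Btg2 without knockout array 2 or 3 (up to 0.251). The part of this list in the values of Ddit4, Cebpb, Atf3 and Ppp1r15a was not tested.

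Shmt1 joins serine to folate and glycine metabolism, where changes went both ways. Of 13 tested genes, 2 rose and 1 fell. Gldc, the decarboxylase of the mitochondrial glycine cleavage system, gave 571, 628 and 532 in knockout and 946, 980.5 and 1064 in wild type. The groups lay far apart, a 1.73-fold fall (log2 change −0.79 with SE 0.08, limma adjusted p = 0.000134). Ftcd, which hands one-carbon units from histidine breakdown to folate in the cytosol, gave 270.4, 246 and 278 against 131, 127 and 121, a 2.09-fold rise (log2 change 1.06 with SE 0.10, limma adjusted p = 8.27e-05). Bhmt, which remakes methionine from betaine, gave 146, 138 and 138 against 97.9, 93.3 and 76.1 (log2 change 0.67 with SE 0.14, limma adjusted p = 0.0141), and its call ended without wild type array 3 (0.0523). Of 10 tested genes that break down or transaminate serine, proline and alanine, 1 fell and none rose: Oat, ornithine aminotransferase, gave 1286, 1260.1 and 1153 against 1551, 1498 and 1586 (log2 change −0.33 with SE 0.06, limma adjusted p = 0.0111), a call that ended without wild type array 1 or 3 (up to 0.0571).

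**Figure D5:**
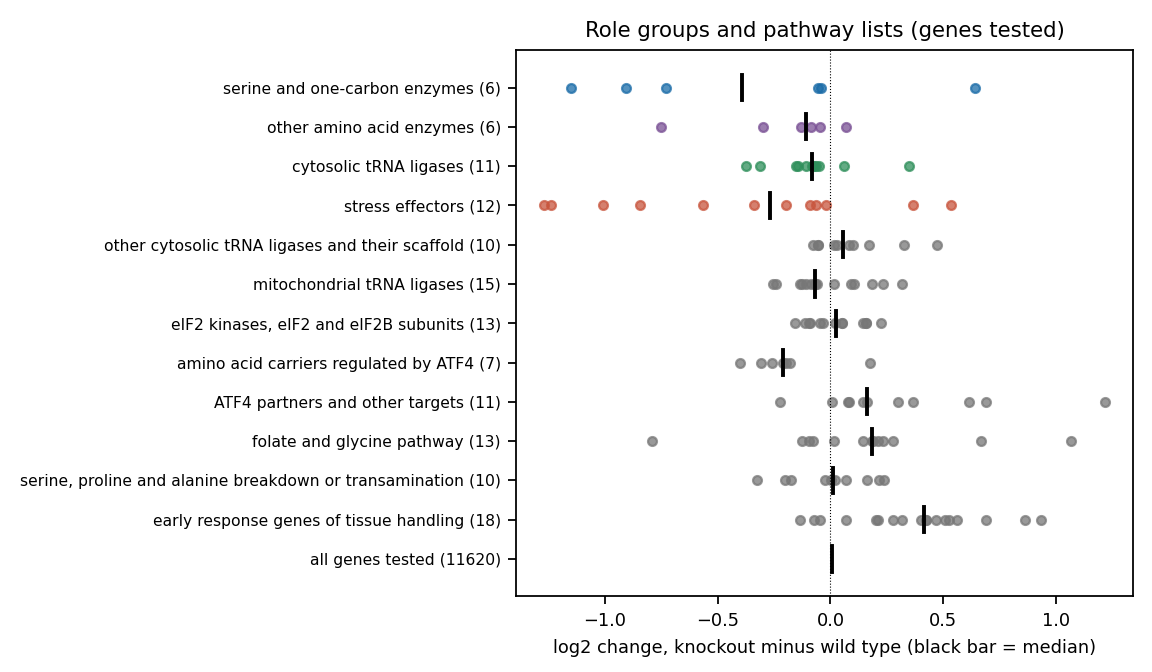
Log2 change (x axis) of each tested gene (points) by role of the members (coloured) and by pathway list (grey), with the number of genes tested in brackets and the median as a black bar; for all genes tested only the median is drawn. Serine genes and stress effectors reach furthest below 0, and the early response list lies mostly above it.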

How the data were processed

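Total RNA of 6 pools of dissected mouse proximal tubules, 3 Clcn5 knockout and 3 wild type, was hybridised to 6 Affymetrix arrays of 45101 probe sets. The table deposited by the authors gives 1 linear signal intensity for each probe set and array. The submitters' processing notes name GCOS 1.4 and MAS5. The table holds no reads, so the number of arrays limits the precision. Tested on the values, every array had a trimmed mean of 150.0 after leaving off 2% of probe sets at each end. The records of the arrays gave fluidics stations and solution lots. Probe sets were named through the platform annotation: 34945 have 1 gene symbol, 932 several and 9160 none, and 64 controls were left out.

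Log2 signals, with no pseudocount, were fitted with limma 3.58.1 in R 4.3.3 (intensity trend). Genes were kept where the mean log2 signal was at or above the median, with the brightest probe set for each, and p-values were adjusted over the 11620 genes by Benjamini-Hochberg. Promoter windows came from RefSeq and were searched with Python 3.11.15.

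Members, lists and tests were chosen with earlier results of these data known. Signals of every array are given for members past an adjusted p of 0.05, the 3 smallest p of each role and a list of central genes. Of pathway lists, genes past the threshold are named, otherwise the 2 with the smallest p. Alternatives covered a pseudocount of 50, quantile normalization, other filters, averaged probe sets, no trend, array weights, station and replicate number as blocks, an adjusted p of 0.10 and single arrays left out. Station 1 alone, the station 2 pair and the alternatives for probe sets were added after the data were seen.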

Additional observations from a re-analysis of the deposited data

How the results depend on the processing

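Psat1, Shmt1, Asns, Eif4ebp1 and Atf5 passed the threshold under each of the 16 alternatives run at an adjusted p of 0.05, and no named member that passed changed direction under any of these. The groups of the members that passed did not overlap, so most alternatives on the same probe set could not change the direction. Over all 35 members and the 16 alternatives, 529 comparisons kept their side of the threshold, 23 lost it and 6 gained it. With probe sets averaged, 1 member was called higher. Without the intensity trend 487 genes were called, 236 of them higher and 251 lower, and 1 probe set of the members passed in place of 15. At an adjusted p of 0.10, 10 members were called lower and 3 higher, and 23 probe sets of the members passed. With station 1 alone 453 genes were called (212 higher, 241 lower), 5 members (1 higher, 4 lower) and 6 probe sets of members. Leaving out 1 array gave 512 to 733 genes (248 to 340 higher, 246 to 396 lower), 8 to 12 members (1 to 2 higher, 7 to 10 lower) and 9 to 14 probe sets of members. The lowest counts of genes called lower came without wild type array 3 (246) and wild type array 1 (250), of genes called higher without wild type array 2 (248), and of member probe sets without wild type array 1. Same-numbered arrays did not deviate together (r = 0.02, 0.03 and −0.03 over genes), and differently numbered ones gave −0.07 to 0.05. Knockout array 3 and wild type array 2, which shared station 2, gave only 0.04. These values therefore cannot decide whether the numbers pair the pools. With the replicate block 765 genes were called (368 higher, 397 lower), 11 members (2 higher, 9 lower) and 13 probe sets of members. Signals near the filter, as in Mthfd2, Trib3 and Ddit3, limit what these arrays resolve.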
